A study of Mus musculus with 9 samples.

Results

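Midkine (Mdk) and pleiotrophin (Ptn) are the growth factors of a small heparin-binding family, and 7 further genes encode cell surface proteins reported to bind them: the receptor phosphatase Ptprz1, the receptor kinase Alk, the syndecans Sdc1, Sdc2, Sdc3 and Sdc4, and the endocytic receptor Lrp1. Each of these 9 genes was found by its symbol on a probe set of the array, among 22180 genes with a named probe set, and the probe set with the highest mean was used. The set was chosen by a measured value, the low level of Mdk in neurons relative to precursors, so differences between neurons and precursors are given for the 9 genes as a description, with no test. The co-culture arrays had no part in that choice. The neuron and precursor arrays did, so a test of Mdk that uses either is not independent of it.

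Expression was measured in 3 kinds of primary culture from the embryonic cortex of wild-type CD1 mice, with 3 arrays each. In the co-culture, neurons from embryonic day 16 were grown for 4 days before precursors from embryonic day 13 joined them for 1 more day. The neuron culture held embryonic day 16 neurons kept for 5 days in total, although another label gives 4 days. The precursor culture held embryonic day 13 cells kept for 1 day. No added agent or altered allele is named for any group, and no purification of cell types is described. The neurons and the precursors therefore differ in embryonic day and time in culture as well as in cell type. The series concerns growth factor signals between developing cortical cells. The 3 replicates are described as independent, but no label ties a replicate number to a litter or a day.

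Midkine and pleiotrophin are secreted, basic proteins that bind the sulfated sugar chains of proteoglycans. PTPRZ1 carries chondroitin sulfate chains, and pleiotrophin binding is known to reduce its phosphatase activity, which leaves its substrates more phosphorylated. Syndecans are membrane proteins with heparan sulfate chains, and syndecan-3 is known as a pleiotrophin receptor in neurite outgrowth. In the embryonic cortex, PTPRZ1 is a known product of radial precursors, and midkine is known for its high level in the embryo and its decline with maturation.

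The labels were checked against cell type markers. The 10 neuron markers had a mean log2 level of 10.27 to 10.29 in the co-culture, 10.82 to 10.85 in neurons and 9.95 to 10.003 in precursors. The 11 radial precursor markers had 9.82 to 9.85 in the co-culture, 8.21 to 8.48 in neurons and 9.88 to 9.94 in precursors. Among the 9 tested neuron markers, 8 were higher in neurons than in precursors; the neuronal tubulin gene Tubb3 did not pass, with means of 11.95 for neurons and 11.96 for precursors. Neuron genes were thus well expressed in the precursor cultures too. Of other cell types, 8 of 12 microglia, 4 of 8 endothelial, 4 of 7 astrocyte and 5 of 8 meningeal or mesenchymal markers passed the filter on low values. So did 13012 of all 22180 genes, so passing it does not by itself show such cells. In neurons against precursors, 4 of the 4 tested endothelial markers were lower, 3 of 8 microglia markers were lower and 1 higher, and 1 of 5 mesenchymal markers was lower. Over all tested genes 35.2% were lower and 28% higher. Of 4 astrocyte markers 2 were lower and 2 higher, and the 1 tested red cell marker, Hbb-y, was lower by a log2 difference of -1.30 (adjusted p = 0.00126, limma). All 6 intermediate progenitor markers were lower, and of 4 tested oligodendrocyte lineage markers 1 was lower. Of 5 tested interneuron markers 2 were higher (Gad1 and Lhx6) and 3 lower (Gad2, Dlx2 and Dlx5). The interneuron mean was 9.47 to 9.68 in the co-culture, 9.45 to 9.56 in neurons and 9.31 to 9.69 in precursors. The mean of the 8 endothelial markers was 6.74 to 6.90 in the co-culture, 6.35 to 6.49 in neurons and 6.78 to 6.84 in precursors. The mean of the 12 microglia markers was 6.94 to 7.02 in the co-culture, 6.75 to 6.89 in neurons and 6.96 to 7.08 in precursors. Endothelial markers and the red cell marker thus also differed between neurons and precursors. The microglia and mesenchymal counts lower were near or below the share over all tested genes. The part of other cell types in the results was not tested. The mean of the mesenchymal markers was 6.87, 7.30 and 6.64 in co-culture replicates 1 to 3, against 6.56 to 6.68 in neurons and 6.57 to 6.77 in precursors, so co-culture replicate 2 stood highest. In RNA from whole cultures, fewer cells of a type and less RNA per cell cannot be told apart.

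Mdk was high in the co-culture and in precursors and low in neurons. Its log2 level was 10.59, 10.65 and 10.65 in the 3 co-cultures, 8.04, 8.34 and 7.87 in neurons, and 10.70, 10.69 and 10.77 in precursors. The neuron arrays lay far below all others, and the co-culture arrays lay just below the precursor arrays without overlap. The neuron mean was 8.08 ± 0.24 (SD, n = 3) and the precursor mean 10.72 ± 0.046, a log2 difference of -2.64 (SE 0.099), or 6.23-fold lower in neurons. Among 13012 tested genes Mdk had the 22nd lowest difference. The neuron SD was also larger than that of the other cultures. Neuron replicate 2 had the highest Mdk of the neuron arrays, and it also had the highest mean of the radial precursor markers, 8.48 against 8.24 and 8.21 in replicates 1 and 3. The part of such cells in its Mdk level was not tested. The same array was also the highest of the neurons for Ptn, Ptprz1, Alk, Sdc2, Sdc4 and Lrp1, but not for Sdc1 or Sdc3. That place was thus not particular to Mdk. Without that array the difference was -2.77.

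The co-culture Mdk mean was 10.63 ± 0.037, against 10.72 ± 0.046 in precursors. The log2 difference of -0.092 (95% interval -0.31 to 0.13) did not pass (adjusted p = 0.751, limma). The interval leaves room for a fall of up to 0.31 on the log2 scale. The precursor level of Mdk was part of its choice too, so this test is not independent of that choice. Against neurons the co-culture Mdk level was 5.85-fold higher, given without a test because the low neuron level chose the gene. RefSeq lists a pseudogene, Mdk-ps1, and the probe set may also pick up transcripts from such a copy.

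Ptn, the other growth factor of the family, did not follow Mdk. It was at 9.32, 9.42 and 9.39 in the co-culture, 9.43, 9.53 and 9.31 in neurons, and 9.24, 9.23 and 9.35 in precursors. All groups overlapped. Neurons and precursors differed by 0.15 (SE 0.063) on the log2 scale. The co-culture differed from precursors by 0.10 (95% interval -0.038 to 0.25; adjusted p = 0.480, limma) and from neurons by -0.042 (95% interval -0.18 to 0.10; adjusted p = 0.593, limma). Neither difference of the co-culture passed for Ptn.

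**Figure D1:**
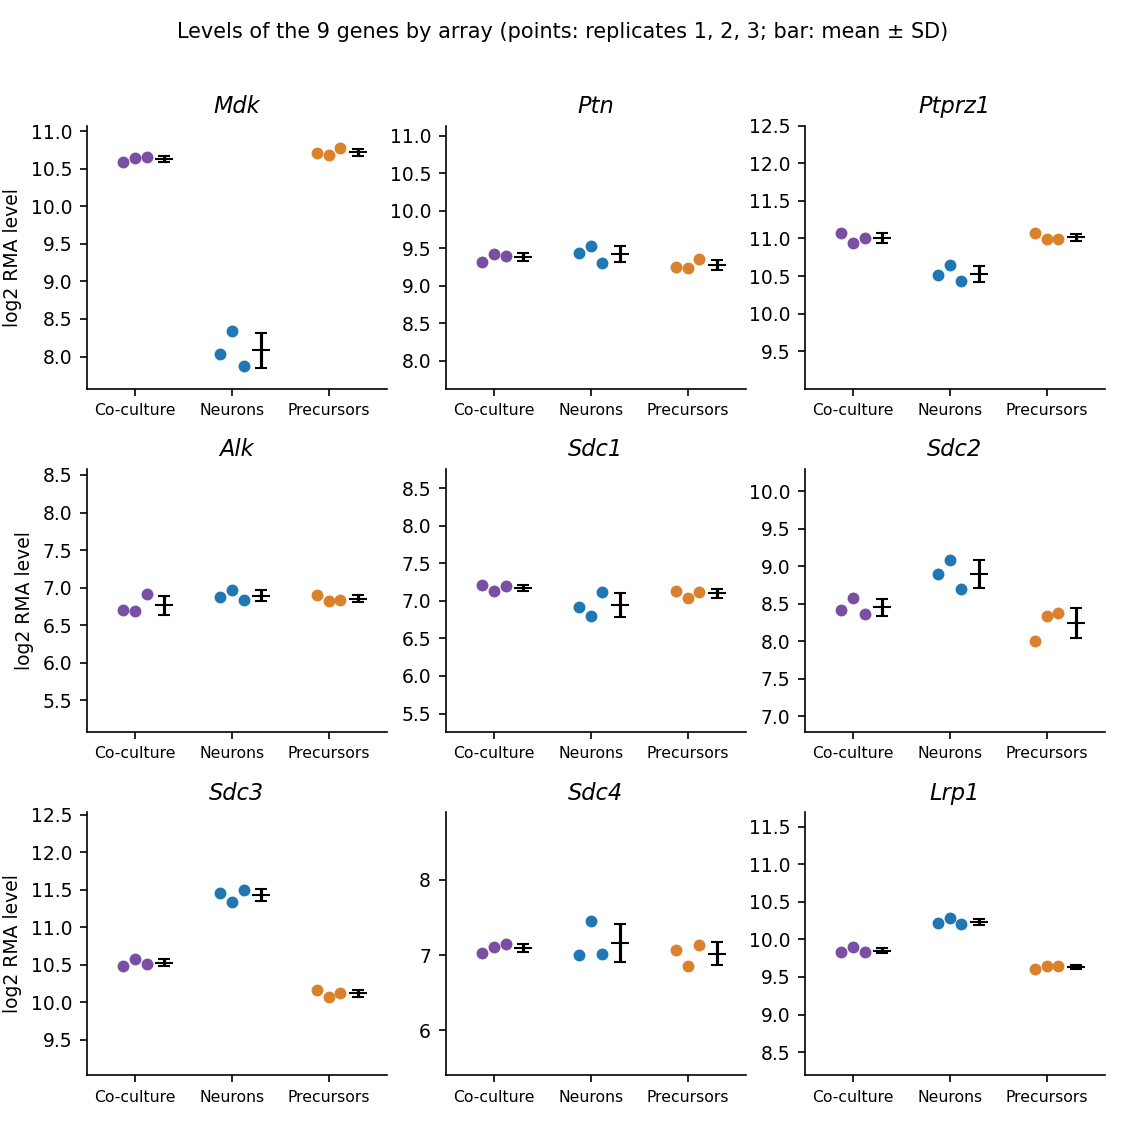
Log2 RMA levels of the 9 genes on each array, by culture, with the mean and SD (n = 3) beside the points. Each panel spans the same number of log2 units but has its own centre. Mdk is near 8.08 in neurons and above 10.5 elsewhere, Sdc3 is highest in neurons at 11.43, and the groups of Ptn, Alk and Sdc4 overlap.

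Ptprz1, the receptor phosphatase of radial precursors, was lower in neurons, as Mdk was, but by less. It was at 11.07, 10.93 and 11.01 in the co-culture, 10.51, 10.65 and 10.43 in neurons, and 11.07, 10.99 and 10.99 in precursors. The neuron arrays lay below all others, while the co-culture and precursor arrays overlapped. Neurons were lower than precursors, with a log2 difference of -0.49 (SE 0.063). The co-culture was 1.39-fold higher than neurons (log2 difference 0.47, SE 0.063, adjusted p = 1.20e-04, limma). Against precursors it differed by -0.012 (95% interval -0.15 to 0.13; adjusted p = 0.961, limma).

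Alk, a receptor kinase with its own ligands in vertebrates, lay close to the array median in every culture. Its level was 6.70, 6.69 and 6.91 in the co-culture, 6.88, 6.97 and 6.84 in neurons, and 6.91, 6.82 and 6.84 in precursors. It was above the array median in 7 of 9 arrays, the fewest of the 9 genes, and its groups overlapped. The co-culture differed from neurons by -0.13 (adjusted p = 0.129, limma) and from precursors by -0.088 (adjusted p = 0.616). Co-culture replicate 3 was the highest of its group, and without it the difference from neurons was -0.20 (adjusted p = 0.0162).

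Of the syndecans, Sdc3 differed most between cultures. This neural syndecan was at 10.49, 10.58 and 10.52 in the co-culture, 11.45, 11.34 and 11.49 in neurons, and 10.16, 10.07 and 10.12 in precursors. No arrays of different groups overlapped, and the co-culture lay between the separate cultures. The neuron mean was 11.43 ± 0.081 and the precursor mean 10.12 ± 0.047, a 2.47-fold higher level in neurons (log2 difference 1.31, SE 0.053). The co-culture was above precursors by 0.41 (SE 0.053, adjusted p = 0.00103, limma) and below neurons by a log2 difference of -0.90 (SE 0.053, adjusted p = 5.66e-07, limma).

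Sdc2, a syndecan known from mesenchymal cells and from dendritic spines, had the same order with more spread. It was at 8.42, 8.57 and 8.36 in the co-culture, 8.90, 9.08 and 8.70 in neurons, and 8.01, 8.33 and 8.38 in precursors. The neuron arrays were the highest, and the co-culture and precursor arrays overlapped. The difference between neurons and precursors was 0.65 (SE 0.12). The co-culture was below neurons (-0.44, SE 0.12, adjusted p = 0.00898, limma), but its difference of 0.21 from precursors did not pass (95% interval -0.053 to 0.48; adjusted p = 0.429). Co-culture replicate 2, with the highest mesenchymal marker mean, also had the highest Sdc2 of its group. The part of mesenchymal cells in that level was not tested.

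Sdc1 and Sdc4, syndecans of epithelial and many other adherent cells, were near the array median. Sdc1 was at 7.21, 7.13 and 7.19 in the co-culture, 6.92, 6.80 and 7.12 in neurons, and 7.14, 7.04 and 7.12 in precursors. The co-culture arrays of Sdc1 lay above the neuron arrays, with a log2 difference of 0.22 (SE 0.075, adjusted p = 0.0265, limma). That call was lost without neuron replicate 1 or 2 (adjusted p = 0.0722 and 0.0776) and without co-culture replicate 1 or 3 (0.0782 and 0.0680). The other Sdc1 probe set had a mean of 5.97 and lay above the array median on 0 arrays. Sdc4 was at 7.03, 7.10 and 7.15 in the co-culture, 7.003, 7.45 and 7.02 in neurons, and 7.07, 6.85 and 7.14 in precursors, and all groups overlapped. Neuron replicate 2 stood high for Sdc4, and no Sdc4 difference passed (adjusted p = 0.852 against precursors and 0.663 against neurons).

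Lrp1, an endocytic receptor of the LDL receptor family for many ligands, had the smallest spread between replicates among the 9 genes in neurons and in precursors. It was at 9.83, 9.89 and 9.83 in the co-culture, 10.22, 10.28 and 10.20 in neurons, and 9.61, 9.65 and 9.65 in precursors. No groups overlapped, and the order was that of Sdc3. Neurons were 1.51-fold higher than precursors (log2 difference 0.60, SE 0.043). The co-culture was 1.16-fold higher than precursors (0.22, SE 0.043, adjusted p = 0.0113, limma) and 1.30-fold lower than neurons (-0.38, SE 0.043, adjusted p = 3.74e-05). Without co-culture replicate 2 the difference from precursors was 0.20 and did not pass (adjusted p = 0.0643). That array had the highest Lrp1 of its group and the highest mesenchymal marker mean, whose part in the result was not tested. It was also the highest of its group for Ptn, Sdc2 and Sdc3, but not for Mdk, Ptprz1, Alk, Sdc1 or Sdc4.

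Read together, 3 of the 9 genes (Sdc2, Sdc3 and Lrp1) were higher and 2 (Mdk and Ptprz1) lower in neurons than in precursors with no overlap of arrays, and 4 overlapped. Over all tested genes 66.4% had groups that did not overlap in this comparison, 29.5% higher and 36.9% lower. At least 2-fold differences were found for Sdc3 (higher) and Mdk (lower), beside 5.49% of all tested genes higher and 4.8% lower by that much. Against precursors, the co-culture was higher for 2 of the 9 genes (Sdc3 and Lrp1) and lower for 0 (limma; at an unadjusted p under 0.05 also 2 and 0), beside 8.22% of all tested genes higher and 0.2% lower (8.42% in all). Arrays of the 2 cultures lay apart for Sdc3 and Lrp1 (higher) and Mdk (lower), as they did for 19.4% of all tested genes higher and 5.4% lower. Against neurons, 5 of the 8 genes tested passed, 2 higher (Ptprz1 and Sdc1) and 3 lower (Sdc2, Sdc3 and Lrp1), which is close to the 60.6% of all tested genes that passed, 35.7% higher and 24.9% lower. Arrays of these 2 cultures lay apart for those 5 genes and for Mdk, 3 higher and 3 lower, and for 38.1% of all tested genes higher and 27.3% lower. The comparisons share arrays, so their values are not independent of each other. No share over all tested genes was counted at an unadjusted p, here or below, so such counts have no background.

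**Figure D2:**
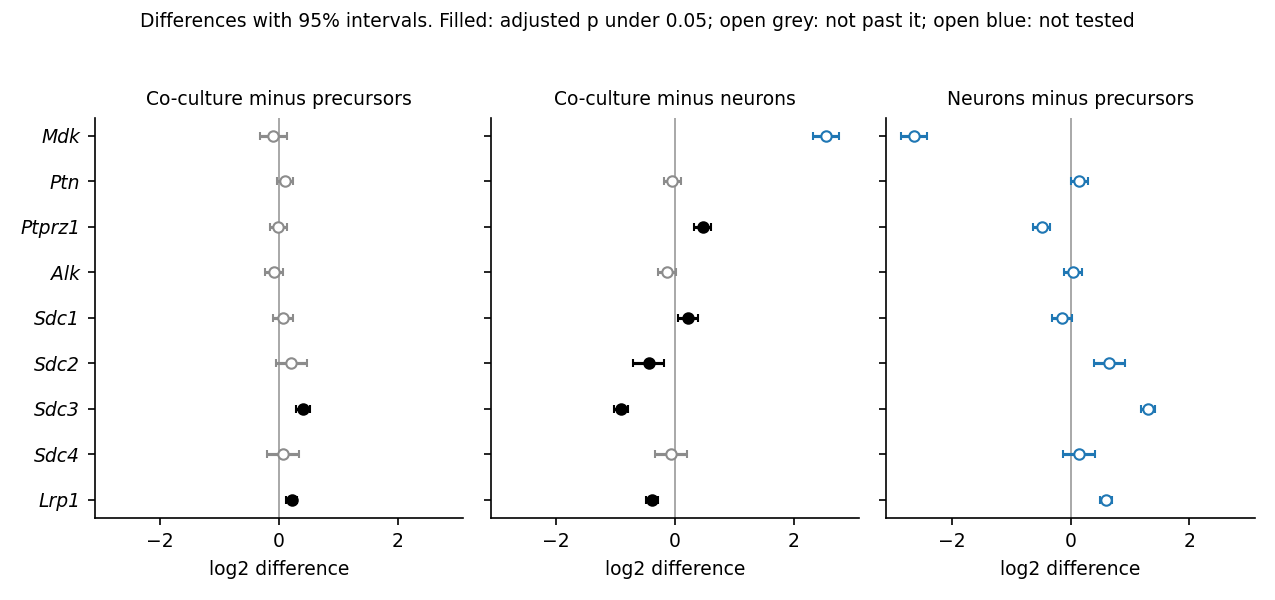
Log2 differences of the 9 genes for co-culture minus precursors, co-culture minus neurons and neurons minus precursors, with 95% intervals from limma. Filled points passed an adjusted p of 0.05, open grey points did not, and open blue points were not tested. Blue are all 9 genes for neurons minus precursors, the comparison that chose Mdk, and Mdk alone for co-culture minus neurons. The low neuron level of Mdk was part of that choice. Sdc3 at 0.41 and Lrp1 at 0.22 are the filled points against precursors.

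Because the co-culture RNA comes from neurons and precursors together, its levels were also set against a mixture of the separate cultures. The neuron share of the mixture was 16.6% ± 1.12 (SD, n = 3), estimated on the linear scale from 213 genes at least 4-fold different between neurons and precursors, with the 9 genes left out. It is an apparent share, since 105 genes higher in neurons gave 22.6% and 108 genes higher in precursors gave 10.7%. Mdk was measured at 10.63 in the co-culture and predicted at 10.50, a log2 difference of 0.12 (95% interval -0.094 to 0.34; adjusted p = 0.765, limma). For Mdk that prediction rests on the neuron and precursor levels that chose it. Sdc3 was 0.091 above its predicted level of 10.44 (95% interval -0.014 to 0.20; adjusted p = 0.660). Lrp1 was 0.099 above its predicted 9.75 (95% interval 0.012 to 0.19), with an unadjusted p of 0.0303 and an adjusted p of 0.518. The other differences were 0.079 for Ptn, 0.058 for Ptprz1, 0.081 for Sdc2, 0.099 for Sdc1, 0.052 for Sdc4 and -0.094 for Alk. None of the 9 genes passed in limma's test (1 at an unadjusted p under 0.05), beside 0.392% of all tested genes (0.361% higher and 0.0307% lower). Estimates were above 0 for 8 of 9 genes, but the median over all tested genes was also above 0, at 0.034. The share of all tested genes above 0 was not counted, so nothing is read from that count. All rest on the same estimated neuron share, whose error is not part of the test. Over the alternatives, including other shares, the Sdc3 difference ranged from -0.0070 to 0.20 and the Mdk difference from 0.043 to 0.21.

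**Figure D3:**
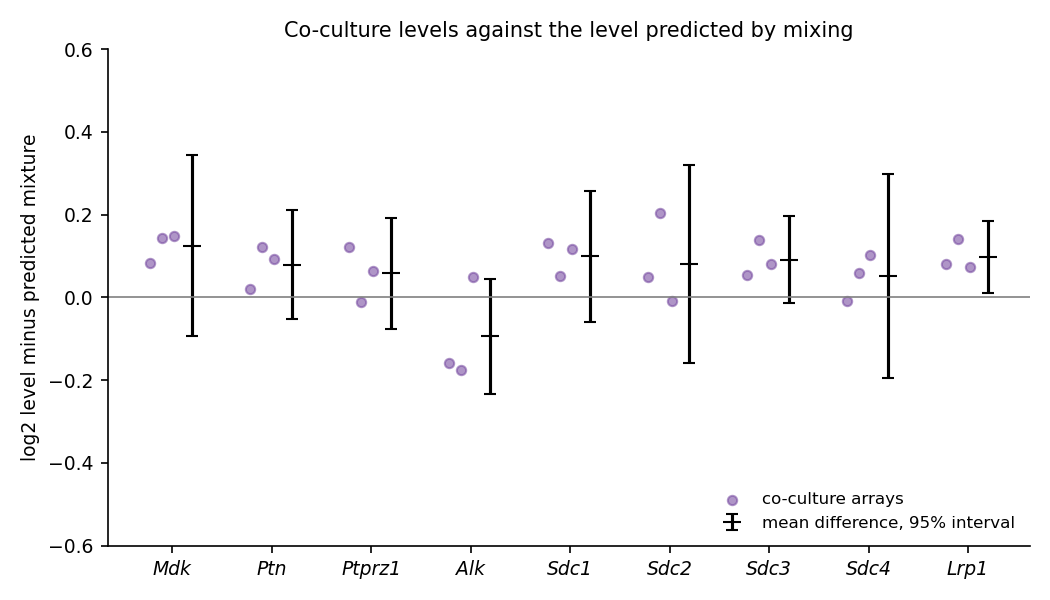
Co-culture levels of the 9 genes minus the level predicted by mixing neuron and precursor RNA at a neuron share of 16.6%, in log2 units. Points are the 3 co-culture arrays and bars the mean difference with its 95% interval. The means lie between -0.094 (Alk) and 0.12 (Mdk).

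The genes most like Mdk over the 9 arrays were genes of dividing cells. They were the topoisomerase Top2a (Pearson r = 0.9997), the replication helicase subunit Mcm7 (0.9996), the chromatin assembly factor subunit Chaf1b (0.9994), the mitotic kinesin Kif11 (0.9994) and the cyclin-dependent kinase Cdk4 (0.9993). Their own log2 differences, neurons minus precursors, were -3.08, -2.46, -2.17, -2.904 and -1.26. Neuron replicate 2 was the highest neuron array for Mdk (8.34), Top2a (7.34), Mcm7 (8.09), Chaf1b (7.52), Kif11 (7.31) and Cdk4 (11.42). For Ptprz1 the most alike were Nup37 (0.996), Cnpy2 (0.995), Mrpl18 (0.995), Snord89 (0.993) and Cep78 (0.993). For Ptn, whose groups overlap, likeness was lower, with Zfp12 (0.966), Dync1i2 (0.945), Lhfpl4 (0.937), Ranbp6 (0.930) and Ifitm3 (0.928). In each of these genes like Ptprz1 or Ptn, neuron replicate 2 was again the highest neuron array. These correlations are descriptions over 9 arrays in 3 groups, and for Mdk and Ptprz1 they rest mainly on the gap between neurons and the other cultures. The gap between neurons and precursors also chose Mdk, and how many other genes had a similar correlation was not counted.

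**Figure D4:**
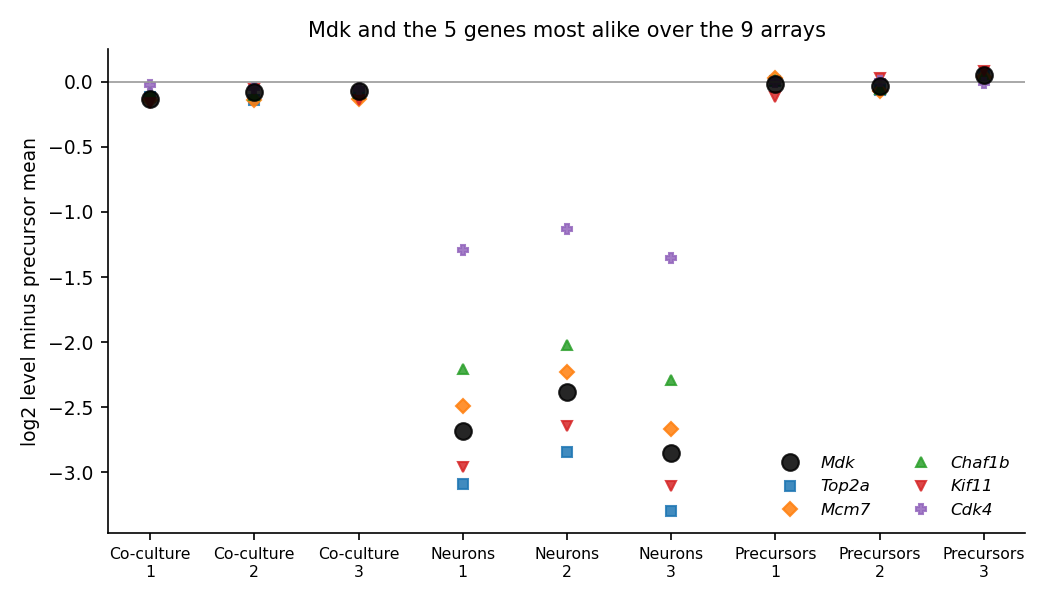
Log2 levels of Mdk and of its 5 most alike genes on the 9 arrays, each minus its own precursor mean. Co-culture and precursor arrays lie near 0, neuron arrays lie below by about the differences given above, from -1.26 for Cdk4 to -3.08 for Top2a, and neuron replicate 2 is the highest neuron array for all of the genes plotted.

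Sequence just before a RefSeq promoter start is shown for Sdc3 and Lrp1, which were higher in neurons, and for Ptprz1, which was lower. RefSeq promoters were matched for 7 of the 9 genes, but not for Mdk and Sdc2. The 250 bases before the promoter start are printed 5′ to 3′ on the strand of the gene (assembly GRCm38.p6). The Sdc3 stretch is at chr4:130792287-130792536, plus strand. The Lrp1 stretch is at chr10:127621149-127621398, minus strand. The Ptprz1 stretch is at chr6:22875252-22875501, plus strand. The annotated Ptprz1 gene starts at chr6:22875315, so much of its printed stretch, with its marked GC boxes, lies within the gene and not before it. Capitals mark a GC box, GGGCGG, found on either strand.
Sdc3: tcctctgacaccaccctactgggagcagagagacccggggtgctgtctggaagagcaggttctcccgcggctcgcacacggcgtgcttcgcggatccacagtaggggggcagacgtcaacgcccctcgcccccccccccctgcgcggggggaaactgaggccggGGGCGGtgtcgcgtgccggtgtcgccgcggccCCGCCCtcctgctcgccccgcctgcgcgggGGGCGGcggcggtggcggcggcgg
Lrp1: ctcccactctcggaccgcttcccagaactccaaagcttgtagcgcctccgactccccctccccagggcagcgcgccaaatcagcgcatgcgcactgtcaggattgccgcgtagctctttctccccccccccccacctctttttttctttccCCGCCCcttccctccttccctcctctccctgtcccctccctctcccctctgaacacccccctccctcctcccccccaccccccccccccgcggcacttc
Ptprz1: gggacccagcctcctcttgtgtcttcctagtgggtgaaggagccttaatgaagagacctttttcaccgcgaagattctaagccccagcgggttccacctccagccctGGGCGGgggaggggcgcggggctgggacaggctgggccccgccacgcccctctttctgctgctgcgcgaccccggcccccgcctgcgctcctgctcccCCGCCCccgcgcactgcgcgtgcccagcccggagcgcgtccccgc
The stretch of Sdc3 held 3 GC boxes, that of Ptprz1 2 and that of Lrp1 1. Among genes whose neuron and precursor arrays overlapped, the count was 4 for Sdc4, 3 for Sdc1, 1 for Alk and 0 for Ptn. The Alk stretch also lay within its annotated gene. Of all 32851 RefSeq stretches of this length, 32.7% held at least 1. The G and C content was 76.4% for Sdc3, 67.2% for Lrp1 and 71.6% for Ptprz1, against 52.0% for Ptn and a median of 52.4% over all stretches. GC boxes were thus found for genes with opposite differences and for genes whose groups overlapped. A match is a description of these letters only.

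The other genes of the pathway were counted on 9 lists with 119 different genes. For neurons against precursors, 28% of all 13012 tested genes were higher and 35.2% lower, and this is the comparison from which Mdk was chosen. Each list count below is from limma's adjusted p. In the same comparison 4 of 4 endothelial and 3 of 8 microglia markers were lower in neurons, as given above, and their part in the list counts was not tested.

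Other proteins reported to bind midkine or pleiotrophin were mostly lower in neurons: 8 of 12 tested were lower and 2 higher. The laminin receptor subunit Itga6 was at 9.31 in the co-culture, against 8.005 in neurons and 9.42 in precursors. Neurons minus precursors was -1.42 (adjusted p = 5.41e-06). Notch2, a Notch receptor, differed by -1.24, and the integrin subunits Itgb1 and Itgav by -0.92 and -0.70. The 2 higher genes, named after their values were seen, were the semaphorin and VEGF receptor Nrp1 (0.35) and the reelin receptor Lrp8 (0.13). Against precursors, 1 of the 12 was higher in the co-culture, Nrp1 (0.25, adjusted p = 0.0270). The count was 0 with no filter, without precursor replicate 1 or 2, and without any 1 co-culture array. The count higher in neurons was 1 without precursor replicate 2 or 3. Of the ALK ligands, Alkal2 was higher in neurons (0.81, adjusted p = 6.04e-05), and Alkal1 was below the filter.

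Among 14 partners and substrates of PTPRZ1, 8 were higher in neurons than in precursors, 3 were lower and 3 did not pass. The contactin Cntn1, an axonal ligand of PTPRZ1, was at 9.83 in the co-culture, against 11.27 in neurons and 8.73 in precursors. Neurons minus precursors was 2.54 (adjusted p = 1.44e-09). The matrix protein Tnr differed by 2.31, and the adhesion molecules L1cam and Ncam1 by 1.15 and 0.90. Adhesion molecules of the list did not all differ as much, and 2 are named after their values were seen: Nrcam differed by 0.16 (adjusted p = 0.0200), and the difference of 0.083 for Nfasc did not pass (adjusted p = 0.1999). The 3 lower genes, named after their values were seen, were the adhesion and Wnt mediator Ctnnb1 (-0.74), the scaffold Magi1 (-0.61) and the matrix protein Tnc (-0.40). In the co-culture 4 were higher than in precursors: Cntn1 by 1.10, Tnr by 0.76, L1cam by 0.40 and Ncam1 by 0.22 (adjusted p = 4.41e-06, 1.01e-04, 5.29e-04 and 0.0109).

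Enzymes that build and edit heparan sulfate, the sugar of the syndecans, were higher in neurons for 14 of 24 tested genes and lower for 2, with a median log2 difference of 0.28, against -0.020 over all tested genes. With the filter at the 75th percentile, which tests fewer genes, the count higher was 7. For this list and those below, how many list genes that filter kept is not given, so its counts are not rates. The largest differences were in sulfotransferases. Hs6st3, a 6-O-sulfotransferase, stood 3.47-fold above precursors in neurons (1.79 on the log2 scale, SE 0.059, adjusted p = 7.67e-09). The 3-O-sulfotransferases Hs3st2, Hs3st1 and Hs3st5 differed by 1.62, 1.12 and 0.84. The 2 lower genes, named after their values were seen, were the epimerase Glce (-0.81) and the N-sulfotransferase Ndst2 (-0.33). In the co-culture 5 were higher than in precursors: Hs6st3 (0.65), Hs3st2 (0.60), Hs3st1 (0.48), and, named after their values were seen, Hs2st1 (0.23) and Hs6st1 (0.16). That count was 3 with the replicate block, with no filter, with centred arrays, and without neuron replicate 3, any 1 precursor array, or co-culture replicate 1 or 2, and 8 with array weights.

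Chondroitin sulfate, the sugar of PTPRZ1, had 12 tested enzymes, of which 7 were higher in neurons and 3 lower (4 and 1 with the filter at the 75th percentile). The polymerizing enzymes Chsy3 and Chpf differed by 0.88 and 0.58, the 2-O-sulfotransferase Ust by 0.79 and the 6-O-sulfotransferase Chst3 by -0.58. Between co-culture and precursors 0 passed in limma's test (4 higher and 0 lower at an unadjusted p under 0.05). With the replicate block 1 passed, Ust (0.31, adjusted p = 0.0465), and with array weights 3, and without neuron replicate 3 the count was 1. Of 7 chondroitin sulfate proteoglycans 3 were higher in neurons and 1 lower. Neuroglycan C (Cspg5) differed by 1.58, aggrecan (Acan) by 1.51 and versican (Vcan) by -0.65, and the difference of -0.54 for biglycan (Bgn) did not pass (adjusted p = 0.103). Without neuron replicate 3 or co-culture replicate 2 the count lower was 2, with Bgn as the gene gained. Cspg5 (0.64) and Acan (0.59) were also higher in the co-culture than in precursors, a count of 2 that was 1 with the filter at the 75th percentile.

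Other heparan sulfate proteoglycans went the other way from Sdc3, with 5 of 9 lower in neurons and 1 higher (0 higher with the filter at the 75th percentile and 2 with cyclic loess). The glypicans Gpc4, Gpc2 and Gpc1 differed by -0.76, -0.44 and -0.38, and Gpc5 by 0.82. Between co-culture and precursors 0 of the 9 passed in limma's test (1 higher and 0 lower at an unadjusted p under 0.05). Thus the glypicans named here were lower in neurons except Gpc5, while Sdc2 and Sdc3 were higher.

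Of 11 syndecan partners and sheddases, 7 were lower in neurons and 3 higher. The count higher was 1 without neuron replicate 2, without precursor replicate 1, and with array weights. The membrane metalloproteinase Mmp14, which can cleave syndecans, was at 9.18 in the co-culture, against 7.24 in neurons and 9.33 in precursors (neurons minus precursors -2.09, adjusted p = 1.81e-08). The membrane to actin linker Ezr differed by -2.00 and the sheddase Adam17 by -0.83. The protein kinase Prkca, which binds the syndecan-4 tail, was higher in neurons by 1.503, and higher in the co-culture than in precursors by 0.40 (adjusted p = 0.0107; 0.0513 without co-culture replicate 2).

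In the LDL receptor family and among LRP1 partners, 6 of 15 tested genes were higher in neurons and 7 lower, so Lrp1 was not followed by its relatives as a whole. Lrp4, a receptor for agrin at the neuromuscular synapse, was 3.64-fold lower in neurons (-1.86, adjusted p = 2.22e-09), and the Wnt co-receptor Lrp5 differed by -0.90. Lrp1b, the closest relative of Lrp1, and Lrp2 differed by 0.88 and 0.87. In the co-culture Lrp1b was 0.28 above precursors (adjusted p = 0.0339) and Sorl1, named after its values were seen, 0.32 (adjusted p = 0.0413). The list's count of 2 was 0 with no filter, without precursor replicate 1 or 3, and without any 1 co-culture array, so neither call held there. The count was 1 when neuron replicate 1 or precursor replicate 2 was left out, and with the filter at the 75th percentile. For Lrp1b the call was lost without the filter (adjusted p = 0.0722), without precursor replicate 1 or 3 (0.108 and 0.112), or without co-culture replicate 1, 2 or 3 (0.121, 0.135 and 0.0610).

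**Figure D5:**
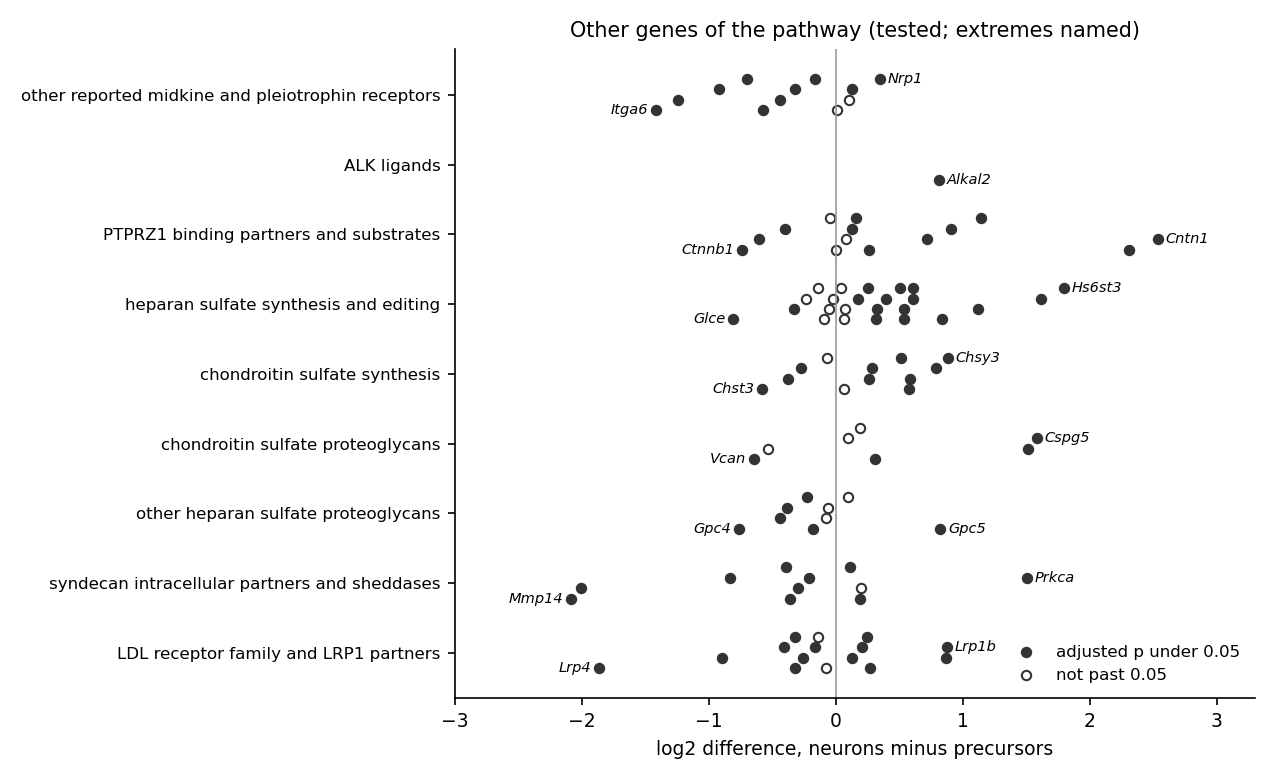
Log2 differences between neurons and precursors for the tested genes of the 9 pathway lists, 1 row per list and 1 point per gene. Filled points passed limma's adjusted p of 0.05, and the lowest and highest gene of each list are named. Cntn1 at 2.54 is the highest and Mmp14 at -2.09 the lowest.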

How the data were processed

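RNA of 3 cultures was measured on 9 mouse gene arrays, 3 per culture, from 100 ng of total RNA per the labels. The deposited values are log2 levels. Per the submitters' processing notes, the authors used the oligo package and its RMA method. Versions and a genome build are not given in the sources used here. RMA subtracts background, equalises the distributions of arrays and fits 1 level per probe set, which can understate folds of dim genes. Scanner files were not analysed here. Arrays have no read depth, so their number limits the precision.

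Of 41345 probe sets, 23521 had a single gene symbol in the platform table. Each of 22180 genes was represented by its brightest probe set, and 13012 genes above the array median in at least 3 arrays were tested. Sdc1 alone of the 9 genes had another probe set. One limma model (version 3.58.1, R 4.3.3) with lmFit and eBayes was fitted to the 3 groups, with no block, two-sided tests and Benjamini-Hochberg adjustment over all 13012 genes at 0.05. The model was run on data simulated with independent noise from its own fitted spread and an exact mixture at a single share. Such data cannot test the mixture result here, where genes higher in neurons and genes higher in precursors gave different shares. The predicted mixture is described beside its result. The genes named are the 9 members, of each pathway list the 4 tested genes with the largest difference between neurons and precursors, the marker genes given, and the 5 genes most correlated with Mdk, Ptn and Ptprz1. Other genes are named where a count was small, and were chosen after their values were seen. The members, lists and tests were chosen with earlier results of these data known. The alternatives were other filters, other scalings, array weights, the mean of a gene's probe sets, the replicate block, each array left out, and other neuron shares.

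Same-numbered co-culture and precursor arrays deviated from their group means together (r across genes was 0.34, 0.30 and 0.16 for replicates 1, 2 and 3). By a rule of each being over 0.1, the numbers were taken to pair them. Differently numbered arrays were not compared, so these values cannot show that the pairing is real. The main model had no block, and the replicate block was run as an alternative. For neurons and precursors the correlations were 0.0043, 0.13 and -0.15, and for the co-culture and neurons -0.0051, 0.27 and 0.17. By the same rule the numbers were not taken to pair those, but the replicate block still covered the neuron arrays. Coordinates and promoter sequences are from RefSeq, assembly GRCm38.p6. They were used only for the genes' annotation, since no build is named for the array values.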

Additional observations from a re-analysis of the deposited data

How the results depend on the processing

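Over all 16 alternatives the Mdk log2 difference, neurons minus precursors, was -2.77 to -2.53. That range is a description only, since the same difference on these arrays chose the gene. The co-culture difference of Mdk from precursors lay between -0.11 and -0.066 and did not pass under any alternative. Sdc3 passed against precursors and against neurons under all 16. Over the 9 genes, 434 tested values under alternatives kept their direction and side of the threshold (or stayed uncalled), 5 lost their call (Sdc1 against neurons 4 times, Lrp1 against precursors once) and 1 gained a call (Alk against neurons). Scaling by cyclic loess gave a neuron minus precursor difference of 1.40 for Sdc3 and 0.70 for Lrp1. With the replicate block no call among the 9 genes changed. That block also covered the neuron arrays, so it is not a paired test of co-culture and precursors alone. Sdc1 was untested under the 75th percentile filter and under the mean of its probe sets, and so were Alk and Sdc4 at that filter, so the count of genes higher in the co-culture than in neurons was 1 under both settings. It was 1 to 2 with each array left out, as was the count higher than in precursors.

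Over all genes, the count higher in the co-culture than in precursors was 676 to 1112 with each array left out, against 1069, lowest without co-culture replicate 2. The count lower was 26, but 40 with no filter, 43 with the filter at the 75th percentile, 87 with array weights, 42 with the replicate block, and 7 to 51 with each array left out. The counts above and below the predicted mixture were 47 and 4. They were 19 and 0 with no filter, 80 and 1 with the filter at the 75th percentile, 95 and 9 with array weights, and 25 and 2 with the replicate block. Below was also 0 with cyclic loess. At a share lower by 5 percentage points 242 genes lay above, and at a share higher by as much 10 above and 0 below. With the share from genes higher in neurons alone the counts were 9 and 0, and from genes higher in precursors alone 317 and 8. With each array left out they were 9 to 48 and 0 to 2. The cause of these moves was not tested. None of the 9 genes was called against the mixture under any of these. Array number limits the precision, and levels near the array median (Alk, Sdc1, Sdc4) may understate change.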
